A study of Arabidopsis thaliana with 2 samples.

Results

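The osmotin and thaumatin-like proteins of Arabidopsis thaliana were compared between the wax-deficient mutant cer6-2 and its wild type, Ler-0. The group was chosen by locus as 10 genes of the family, OSM34 and 9 relatives, of which those with a feature named for 1 gene entered. This left 8 of the 10 loci, out of 9236 named genes on the array. AT1G75030 (TLP-3) and AT1G77700 had no feature named for them and have no value here. The family was picked with earlier results of these arrays known, in which OSM34 was among the genes lowest in cer6-2, so its values are given as a description and with no test.

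Total RNA came from leaves and stems of 15-day-old plants (2 weeks in the design text), untreated and kept at 22 °C, with 20 plants pooled per genotype. On array 1 the mutant RNA carried Cy3 and the wild-type RNA Cy5, and on array 2 the dyes were exchanged. The labels give no second pool, so both arrays were counted as 1 biological replicate, and a difference between genotypes could not be told apart from a difference between the 2 pools. Each value below is a log2 ratio of cer6-2 over Ler-0, a difference and not a level, and ± gives the SD of the 2 arrays, which are technical measurements (n = 2). In whole aerial parts, fewer cells of a type and less RNA per cell cannot be told apart. The direction is not settled, because the dyes are stated and the numerator of the ratio is not. Cy5 was taken as the numerator, and with Cy3 there instead, lower and higher would exchange places. The log10 base was inferred, and so was that the columns had not been turned to 1 direction before deposit. The sizes and the sign agreement between arrays below rest on both readings.

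Thaumatin-like proteins are compact, disulfide-rich proteins, most of them secreted, and make up family 5 of the pathogenesis-related (PR) proteins. Several of them slow the growth of fungi, and some bind the glucans of fungal cell walls. Osmotin was first known from tobacco cells adapted to salt, and its Arabidopsis relative OSM34 is linked to abscisic acid and salt responses as well as to defence. CER6, the gene mutated in cer6-2, encodes a condensing enzyme that lengthens the fatty acid chains of surface wax. The series title concerns PR1, a PR protein of another family, for which no feature was named, and none was named for CER6 either.

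OSM34 (AT4G11650) was the member with the lowest ratio. Its deposited log10 ratio was 0.632 on array 1 and -0.726 on array 2, which turned to cer6-2 over Ler-0 gave log2 ratios of -2.10 and -2.41. Under these readings both arrays placed it lower in cer6-2, 4.28-fold on array 1 and 5.32-fold on array 2. Its mean was -2.25 ± 0.22, a 4.77-fold difference, and the part of its signal that stayed with the dye in place of the genotype was small, at -0.16. Among all 9236 genes it had rank 9 from the lowest by the mean, rank 17 on array 1 and rank 8 on array 2. If the columns were already turned when deposited, its mean was -0.16, and with the values read as log2 it was -0.68, and under either reading it was not called.

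No other member came close to this on both arrays. AT1G73620, a thaumatin superfamily gene without a symbol in the gene table, was next, with -1.42 on array 1 and -0.60 on array 2. Its mean of -1.01 ± 0.58 was a 2.01-fold difference, but array 2 alone gave 1.52-fold, so it was not called. The gap of 0.82 between its arrays was larger than that of 85.4% of all genes. By the mean OSM34 lay 1.24 below AT1G73620, and it lay 0.68 below the next lowest member on array 1 and 1.74 below on array 2. The values of OSM34 did not overlap with those of any other member on these technical arrays. Nothing more is read from that, since the family was picked with OSM34 known to be low.

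**Figure D1:**
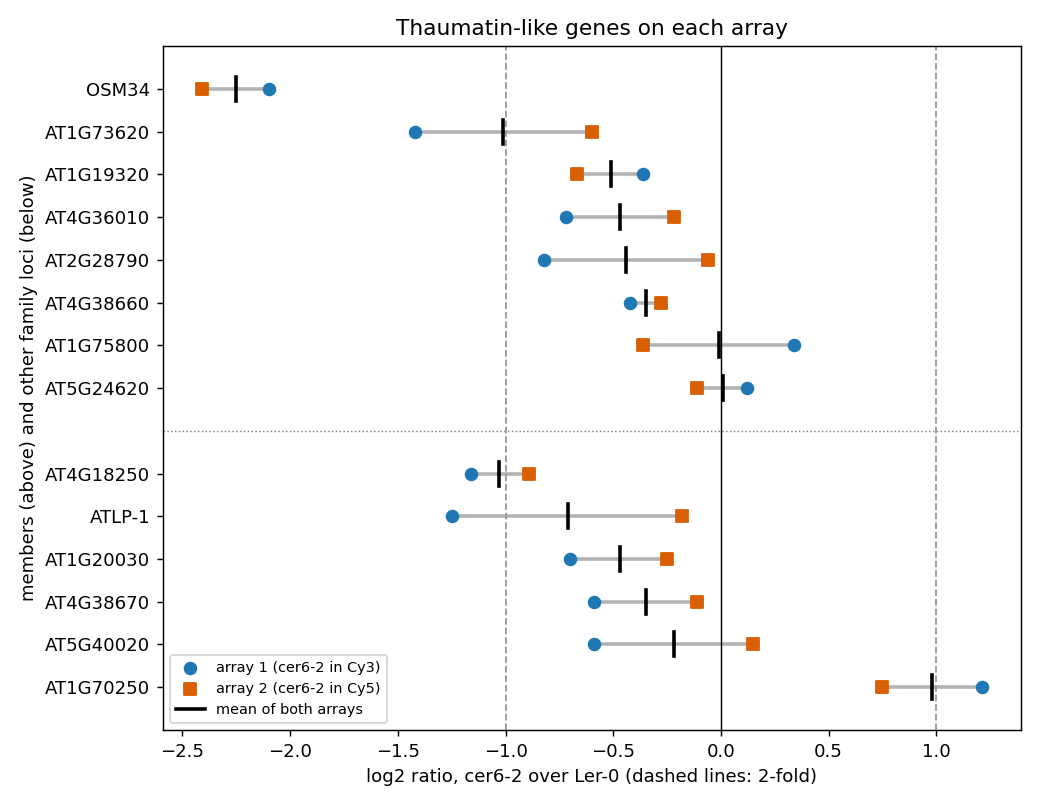
Log2 ratio of cer6-2 over Ler-0 for the 8 measured members (upper block) and 6 other thaumatin-like loci (lower block), with a circle for array 1, a square for array 2 and a black tick for their mean. Only OSM34 has both points beyond the dashed 2-fold line on the lower side. The members AT1G75800 and AT5G24620, and AT5G40020 in the lower block, have points on both sides of 0.

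A middle group of 4 members lay below 0 on both arrays by less than 2-fold. AT1G19320 gave -0.36 on array 1 and -0.67 on array 2, with a mean of -0.51 ± 0.22. AT4G36010 gave -0.72 and -0.22, with a mean of -0.47 ± 0.36. AT2G28790 gave -0.82 and -0.06, with a mean of -0.44 ± 0.54, so that array 2 placed it at 1.04-fold and nearly no difference. AT4G38660 had the closest pair of arrays, -0.42 and -0.28, and a mean of -0.35 ± 0.10. The ranges of these 4 genes between arrays overlapped, so their means are not ordered. On array 2 AT1G19320 also passed AT1G73620, at -0.67 against -0.60, so these 2 are not ordered either.

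The last 2 members had opposite signs on the arrays. AT1G75800 gave 0.34 on array 1 and -0.36 on array 2, with a mean of -0.01 ± 0.49. Its ratio followed the dye rather than the genotype, with -0.35 on the side of Cy3. AT5G24620 gave 0.12 and -0.11, with a mean of 0.01 ± 0.17, and its dye part was -0.12. No direction can be given for either gene.

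Calls of lower or higher required a 2-fold difference of the same sign on each array, a rule of size and not a test. Of the 8 measured members 1, OSM34, was called lower, against 0.725% of all genes (67 of 9236), and 0 were called higher, against 0.595% (55 of 9236). At 1.5-fold on both arrays 2 members were lower, OSM34 and AT1G73620, against 1.91% of all genes, and 0 were higher, against 1.80%. Below 0 on both arrays were 6 of the 8, against 20.4% of all genes, 0 were above 0 on both, against 23.1%, and 2 had opposite signs, against 53.6%. Nothing is read from these shares, since the family was picked with the values known.

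The median of the 8 members was -0.46 and that of all genes 0.00. By array the members' median was -0.57 and -0.32, and that of all genes -0.01 and 0.03. Without OSM34 the median of the other 7 was -0.44, with means from -1.01 to 0.01 and 0 of 7 called. The members' median SD between arrays was 0.29, close to the 0.26 of all genes. By the mean 7 of 8 lay below 0, against 48.7% of all genes. On array 2 all 8 lay below 0, against 44.4% of all genes, and on array 1 this held for 6 of 8, against 50.6%.

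**Figure D2:**
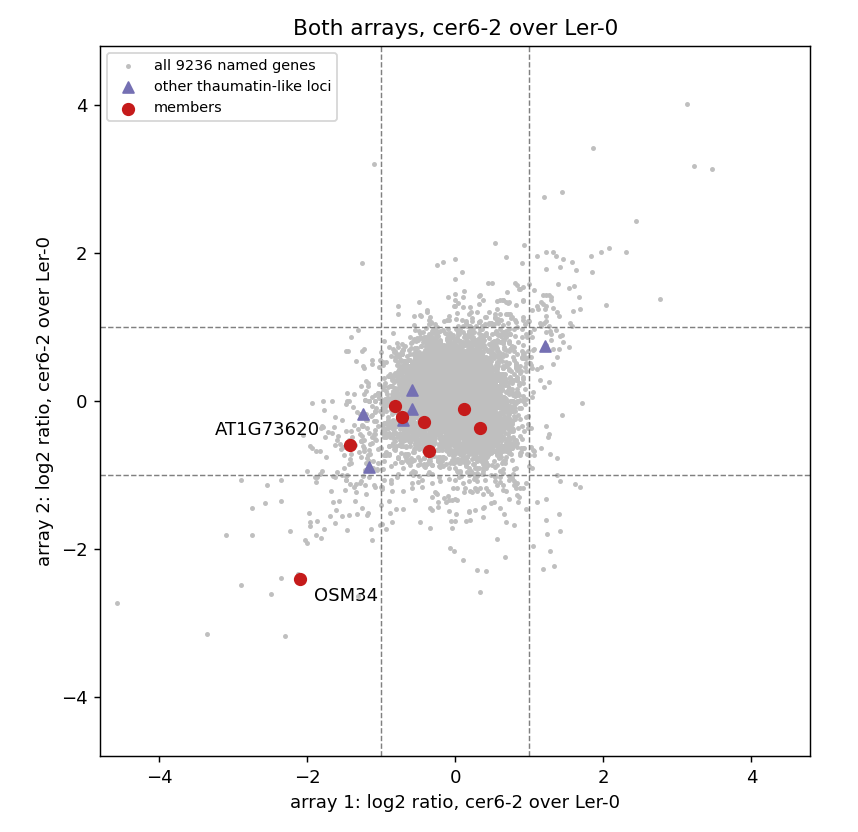
Each point is a gene, with its log2 ratio of cer6-2 over Ler-0 on array 1 (horizontal) and array 2 (vertical), for all 9236 named genes (grey), the 8 members (red circles) and 6 other thaumatin-like loci (triangles); dashed lines mark 2-fold. OSM34 stands at -2.10 and -2.41 in the sparse lower left corner, and the other members lie in or at the edge of the central cloud.

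A further 14 loci of the wider family, among them PR5 and the receptor kinases with a thaumatin-like outer domain, were listed beside the members. Only 6 had a named feature, and PR5 itself (AT1G75040) was not among them, so the member of the family most used as a marker of salicylic acid signalling has no value here. None of the 6 was called at 2-fold. The kinases went opposite ways. AT4G18250 gave -1.16 and -0.89, with a mean of -1.03 ± 0.19, and AT1G70250 gave 1.21 and 0.75, with a mean of 0.98 ± 0.33. AT1G70250 was the only locus of the family above 0 on both arrays among the 14 with a value. It also passed 1.5-fold on both, as AT4G18250 did on the lower side, at 2.24-fold and 1.86-fold.

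The 4 other loci encode thaumatin-like proteins with no kinase part. ATLP-1 (AT1G18250) gave -1.25 on array 1 and -0.18 on array 2, with a mean of -0.71 ± 0.75, an unevenness larger than in 93.4% of genes. AT1G20030 stood at -0.47 ± 0.32 and AT4G38670 at -0.35 ± 0.34, both below 0 on both arrays, and AT5G40020 at -0.22 ± 0.52 had opposite signs. AT4G38670 is the direct neighbour of the member AT4G38660 on the chromosome, and both had a mean of -0.35. By array they were less alike, with -0.59 and -0.11 for AT4G38670 against -0.42 and -0.28 for AT4G38660. Probe sequences were not used here, so whether such neighbouring relatives share signal was not tested. Over members and other loci together, 12 of 14 had a mean below 0, against 48.7% of all genes, with a median of -0.46. Of the 14, 1 was called lower, against 0.725% of all genes.

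The genes that flank the measured members gave no called gene. Of 16 flanking protein-coding loci 9 had a named feature, with means from -0.35 (AT4G38670) to 0.09 ± 0.10 (AT4G11640, SR, encoding serine racemase, beside OSM34).

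The genes whose pair of array values lay nearest to that of OSM34, by Euclidean distance over the 2 arrays in log2 units, were of several families. AT1G26390, of the berberine bridge enzyme family of oxidases, was nearest, at a distance of 0.07 with -2.13 and -2.34. AT1G51090, a gene of the heavy-metal-associated domain family, followed at 0.26, and COR15A, a cold-induced chloroplast protein, at 0.43. AT4G16260, of the beta-1,3-glucanase family, lay at 0.50 with a mean of -1.96, and AT1G43910, an AAA-type ATPase, at 0.54 with -2.03 and -1.88. Within a distance of 1 there were 20 genes. With 2 arrays such likeness says only that the ratios are alike in size.

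Other secreted PR and antimicrobial proteins act beside the thaumatin-like ones, and 12 of a list of 27 had a feature. Of these 6 were called lower, against 0.725% of all genes, and 0 higher, against 0.595%. Their median was -1.34, against -0.46 for the thaumatin-like members and 0.00 for all genes. The plant defensin PDF1.2 was the lowest of them, with -2.74 on array 1 and -1.44 on array 2, and the thionin THI2.2 the highest, with 0.44 and 0.67. The other 5 called were chitinases, which cut a polymer of fungal walls, out of 9 chitinases measured. The means of those called were -1.98 ± 0.93 for AT2G43590, -1.83 ± 0.19 for AT1G02360, -1.79 ± 0.24 for CHI, -1.34 ± 0.46 for AT3G47540 and -1.34 ± 0.20 for AT4G01700. The 4 not called had means of -1.33 (AT2G43580), -0.59 (AT2G43610), -0.51 (AT2G43620) and -0.05 (AT1G56680), the last with opposite signs on the arrays. OSM34, at -2.25, lay below all 12 by the mean, but PDF1.2 was lower on array 1 and AT2G43590, at -2.64, was lower on array 2. CHI (AT2G43570), AT2G43580, AT2G43590, AT2G43610 and AT2G43620 are chitinases with neighbouring locus numbers. Whether they share signal was not tested, so they may not count as separate measurements. The list was written with these values known.

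In a list of osmotic, salt and abscisic acid response genes, 7 of 25 had a feature, with ratios on both sides of 0 and a median of -0.22. Of these 2 were called lower, against 0.725% of all genes, and 2 higher, against 0.595%. COR15B and COR15A, adjacent paralogs, stood at -3.26 ± 0.15 and -2.54 ± 0.08. HIS1-3, a drought-induced linker histone, stood at 2.44 on array 1 and 2.43 on array 2, and AT5G38710, a proline dehydrogenase, at 1.61 ± 0.28. The 3 others were not called. KIN2 stood at -1.20 ± 0.42, while KIN1 at -0.22 ± 0.41 and COR47 at 0.08 ± 1.11 had opposite signs on the arrays. OSM34 thus had the sign of the COR15 pair and KIN2, and not that of HIS1-3 or AT5G38710.

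Only 2 of 20 regulators of PR genes had a feature. Of these 1 was called lower, against 0.725% of all genes, and from 2 genes no share is read. WRKY53, a transcription factor of leaf senescence and defence, was called lower at -1.27 ± 0.21, and the glutaredoxin GRX480, which interacts with TGA factors, was not, at -0.30 ± 0.14. NPR1, a main regulator of PR genes, had no named feature.

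As a check of the tissue, the 3 leaf markers with a feature had a median of 0.08, from RCA at 0.08 ± 0.04 to LHCB4.2 at 0.25 ± 0.66. The 3 root markers had a median of -0.15, from EXPA7 at -0.46 ± 1.02 to PYK10 at 0.73 ± 0.08. A table of ratios holds no levels, so presence of a tissue could not be read from it, and the part of tissue makeup in the values of the members was not tested.

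**Figure D3:**
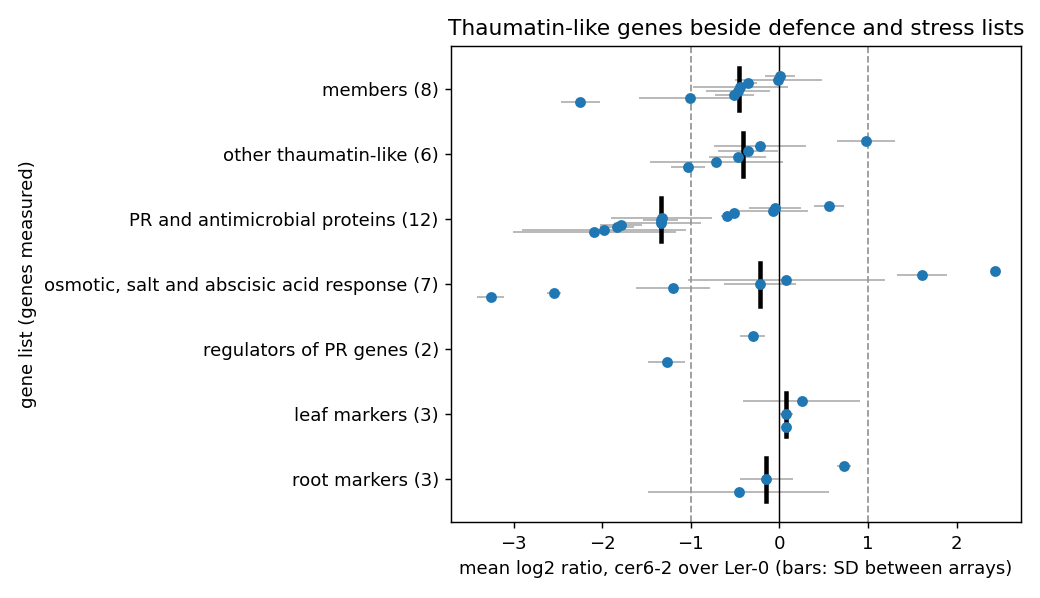
Mean of both log2 ratios (cer6-2 over Ler-0) for each measured gene of 7 lists (points), with the SD between the 2 arrays (bars), the list's median where at least 3 genes were measured (black ticks) and 2-fold as dashed lines. The thaumatin-like members cluster between -1.01 and 0.01 with OSM34 apart at -2.25, while the PR and antimicrobial list is centred at -1.34 and the osmotic list spans -3.26 to 2.43.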

How the data were processed

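For each of 22575 features of Agilent Arabidopsis 2 two-colour arrays the authors deposited 1 value an array. The deposited values run from -2 to 2 with a median of 0 per array and were read as log10 ratios. That base is inferred from the values, and the software, background correction and dye normalisation behind it were not given in the sources used here. Array 1 was multiplied by -1 by its dyes, and values were converted to log2. It was assumed that the deposited columns had not been turned, which no source states. Among genes 2-fold from 0 in both, 122 had opposite deposited signs and 15 the same, which favours the assumption. The correlations of the turned arrays do not all favour it, with r = 0.17 and rho -0.04 over named genes and r = -0.57 over all features, across features that are not independent replicates. Features were named by gene identifier through the platform annotation and the RefSeq gene table of assembly TAIR10.1. Of 9375 annotated features 9317 matched 1 gene, giving 9236 genes, and features of a gene were averaged. Both deposited values were exactly 0 for 1236 features, and whether these were measured ratios is not known. Named genes among them stayed in the counts, shares and medians. No signal level is given, so low transcripts could not be filtered, and precision is limited by having 2 arrays.

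The members and lists (105 loci in 7 lists) were chosen with earlier results of these data known. Named are all members, the other family loci with a feature, the called, highest and lowest genes of the other lists, and the 5 genes nearest to OSM34. KIN1, KIN2, COR47, the chitinases not called, AT4G11640 and AT3G07320 fall outside this rule and were chosen after their values were seen. The steps were tested on simulated data built with the same dye signs and log10 base, so that test could not check these readings. Alternatives were each array alone, centring, log2 as the scale, columns already turned, the median of features, discordant features left out, and other thresholds. Planned searches of protein and promoter sequences were not analysed here. Python 3.11.15, numpy 2.4.6 and pandas 2.3.3 were used.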

Additional observations from a re-analysis of the deposited data

How the results depend on the processing

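OSM34 was called lower under each alternative that could move it except 2, which change how the deposited values are read. Read as log2, it stood at -0.68, the members' median at -0.14, and 0 members and 0 genes in all were called. Read as turned before deposit, OSM34 stood at -0.16, the median at -0.03, and 0 members and 15 genes were called. In both cases construction sets the change. By array OSM34 ran from -2.41 to -2.10, the median from -0.57 to -0.32, the members called lower from 1 to 2 and the genes called from 329 to 369. AT1G73620 was the second member called on array 1 alone, at 1.5-fold (2 members, 342 genes) and by the mean of both arrays (2 members, 212 genes). At 3-fold 31 genes were called, OSM34 among them. Centring moved no member by more than its SD, but gave AT5G24620 a mean of -0.01. The median of features and leaving out discordant features could not move a member, since each has 1 feature and none is over 2-fold apart between arrays, so they test nothing here. With the other family loci, a setting chosen after seeing the data, 1 of 14 was called lower. No paired analysis was possible because there is 1 pool per genotype, hybridised on each array.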

Other observations

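Beta-1,3-glucanases, the PR-2 family, cut a glucan to which some thaumatin-like proteins bind. A list of 43 loci was written after AT4G16260 was seen among the genes nearest to OSM34, so it is no independent evidence. Of 25 with a feature, 1 was called lower, AT4G16260 at -1.96 ± 0.05, against 0.725% of all genes, and 0 higher, against 0.595%. The median was 0.00, 12 had a mean below 0 and 11 above, and 2 were listed at 0 on both arrays. AT3G07320 was next lowest at -0.80 ± 0.13 and AT1G11820 the highest at 0.58 ± 0.10. AT4G16260 stood well below the others on both arrays. The list was built around it, so no likeness to the thaumatin-like genes is read from this. The glucanase most used as a defence marker, PR2, had no named feature.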
